A study of Mus musculus with 4 samples.

Results

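Immediate early genes and the feedback genes of the FGF-ERK pathway were examined in mouse embryonic stem (ES) cells depleted of Atad2, an AAA ATPase with a bromodomain. The group holds 10 genes, *Egr1*, *Fos*, *Jun*, *Junb*, *Ier2*, *Dusp6*, *Spry2*, *Spry4*, *Etv4* and *Etv5*, out of 10190 genes that were tested and 20780 that could be named. The list was chosen by the knockdown ratio of *Egr1*, which was higher in si-Atad2 cells, and was filled with genes of its class and pathway, so the knockdown ratios of all 10 are given as a description, with no p-value. All 10 passed the filter of a mean of at least 1 FPKM (fragments counted per kilobase of a transcript and scaled to the size of the library).

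The RNA came from 46C ES cells, in which the *Atad2* gene carries a TAP tag by knock-in, and the tagged line is a chosen clone. Every library shares this tag, so no library comes from cells with an unmodified *Atad2* gene. Cells received either an inactive scrambled siRNA (si-ctrl, 2 libraries) or an active anti-*Atad2* siRNA (si-Atad2, 2 libraries), and they were grown without feeder cells on gelatin in medium with serum and LIF. The study used more than 1 active siRNA, and the labels do not say which of them was used for which library, nor whether libraries of a condition came from separate transfections. The paper states that RNA samples were sequenced in duplicate, so the libraries of a condition may be repeat runs of the same RNA. Every SD over n = 2 and every p-value here therefore measures only the spread between these libraries, which may be technical.

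Immediate early genes are transcribed within minutes of a stimulus, without new protein synthesis, mainly through transcription factors that the kinase ERK acts on directly or through its downstream kinases. In mouse ES cells, Fgf4 made by the cells themselves keeps ERK active, and this activity favours exit from self-renewal, an exit that LIF counters. The same pathway induces its own brakes, the ERK phosphatase Dusp6 and the Sprouty proteins, and the ETS factors Etv4 and Etv5. Serum, cell stress and handling of cells also induce immediate early genes.

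Promoter sequences are shown first, since these genes are best known for the control of their transcription. RefSeq promoter windows, each from 250 bases before to 50 bases after an annotated start, were at hand for *Fos*, *Jun*, *Junb*, *Dusp6*, *Spry2* and *Etv5*, which has 2 of them. *Ier2* and *Etv4* had no entry, and the windows of *Egr1* and *Spry4* were not used here. The 250 bases before the start are printed for *Fos*, the canonical immediate early gene, and for *Junb* and *Dusp6*, whose knockdown ratios came next after that of *Egr1*. They are from RefSeq on build GRCm38.p6, at chr12:85473640-85473889 on the plus strand for *Fos*, chr8:84978749-84978998 on the minus strand for *Junb* and chr10:99262981-99263230 on the plus strand for *Dusp6*. Capitals mark a match to any motif searched.
Fos: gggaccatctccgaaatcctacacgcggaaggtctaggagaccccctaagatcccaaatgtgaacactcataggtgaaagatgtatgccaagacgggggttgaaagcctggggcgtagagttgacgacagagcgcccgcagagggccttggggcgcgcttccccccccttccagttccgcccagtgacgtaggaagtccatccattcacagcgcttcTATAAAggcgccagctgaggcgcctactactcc
Junb: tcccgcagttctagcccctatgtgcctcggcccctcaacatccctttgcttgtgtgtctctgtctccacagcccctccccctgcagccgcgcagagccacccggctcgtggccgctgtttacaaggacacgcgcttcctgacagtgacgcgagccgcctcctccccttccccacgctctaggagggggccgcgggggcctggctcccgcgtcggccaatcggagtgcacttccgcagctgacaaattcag
Dusp6: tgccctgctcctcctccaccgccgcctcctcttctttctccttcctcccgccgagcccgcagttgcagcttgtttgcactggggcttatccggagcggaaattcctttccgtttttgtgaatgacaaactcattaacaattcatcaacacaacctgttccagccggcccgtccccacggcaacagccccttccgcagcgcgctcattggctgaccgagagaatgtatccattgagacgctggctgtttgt

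Motifs were searched on both strands of the 7 windows and of all 32851 RefSeq promoter windows of the same length. The TATA box, as TATAAA, was found in 2 of the 7 windows and in 13.6% of all windows. In *Fos* it lay at positions -33 to -28 relative to the RefSeq start, and in *Junb* at positions 1 to 6, which is outside the printed stretch. The GENCODE start of *Junb*, at 84978718 on the minus strand, lies downstream of the RefSeq start. The match in *Junb* is therefore upstream of the GENCODE start, and the printed stretch stops short of that start. The ETS core CCGGAA was found in 1 of the 7 windows, that of *Spry2* at positions 34 to 39, and in 14.9% of all windows. None of the 7 held a CArG box, the site of serum response factor (1.63% of all windows), the EGR sites GCGTGGGCG (0.612%) or GCGGGGGCG (2.91%), the AP-1 site TGAGTCA (5.2%) or the CRE TGACGTCA (1.79%). These counts say only which letters occur in these windows. Only matches to the stated patterns were counted, so variants of these sites were missed. Sequence outside the windows was not searched. A window without a match therefore does not show that the gene lacks such a site.

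The target of the siRNA was checked first. *Atad2* (GRCm38, chromosome 15, 58094044 to 58135082) stood at 34.1 and 36.0 FPKM in si-ctrl libraries 1 and 2 and at 10.1 and 13.0 FPKM in si-Atad2 libraries 1 and 2. It fell by 1.53 on the log2 scale (limma, SE 0.0766, adjusted p = 4.5e-07), the lowest ratio of all 10190 genes. In pair 1, 29.6% of the control level was left, and in pair 2, 36.2%. A log2 ratio here is the log2 of si-Atad2 plus 1 FPKM over si-ctrl plus 1 FPKM within a pair of libraries of the same number, since the authors processed each pair in a run of its own, and this scale understates changes of low genes. Levels set side by side across the pairs come from tables that were normalized separately. In bulk RNA, a change in fewer cells and a smaller change in every cell cannot be told apart.

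In si-ctrl cells the 10 genes spanned a wide range of levels, which FPKM gives per transcript length. *Etv5* was the most abundant, with 109 and 108 FPKM. *Spry2* (47.6 and 49.4 FPKM) and *Ier2* (48.3 and 47.3 FPKM) followed, and their levels did not differ beyond the spread of the libraries. Next came *Etv4* and *Spry4*, each apart from its neighbours. *Egr1*, *Junb* and *Dusp6* formed a group between 13.4 and 15.9 FPKM whose levels overlapped, and *Jun* and *Fos* stood lowest, with no overlap between them. The si-ctrl libraries differed little from each other, by at most 0.19 on the log2 scale for any of the 10 genes, the largest difference being that of *Egr1*.

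**Figure D1:**
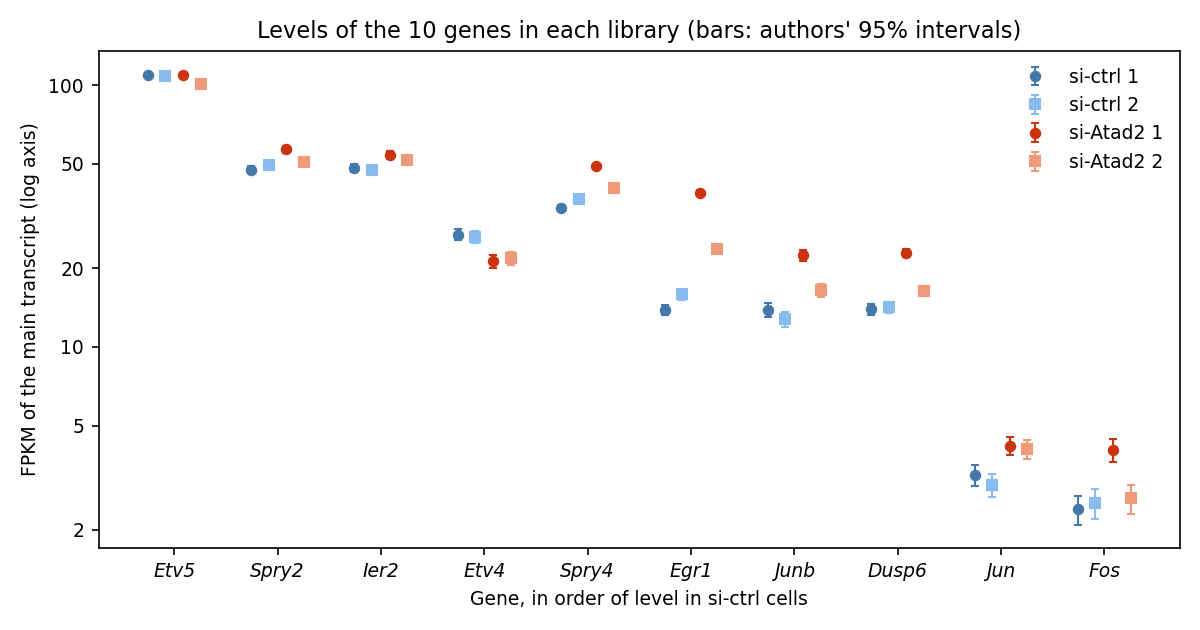
FPKM (log axis) of the most abundant transcript of each of the 10 genes in the 2 si-ctrl (blue) and 2 si-Atad2 (red) libraries, with circles for pair 1, squares for pair 2 and bars for the 95% intervals of the authors' tables, which cover the error within a library. The si-Atad2 points lie above both si-ctrl points for 8 genes, and si-Atad2 1 lies farthest above for *Egr1*, at 38.6 FPKM.

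*Egr1*, a zinc finger transcription factor and a classical immediate early gene (GRCm38, chromosome 18, 34859823 to 34864984), had the largest ratio of the 10. Its level was 13.8 and 15.9 FPKM in the si-ctrl libraries and 38.6 and 23.7 FPKM in si-Atad2 libraries 1 and 2. Both si-Atad2 libraries were above both si-ctrl libraries, and the si-Atad2 libraries were far from each other, by 0.68 on the log2 scale. The ratio was 2.80-fold in pair 1 and 1.49-fold in pair 2, for a mean log2 ratio of 0.98 ± 0.62 (SD, n = 2). This placed *Egr1* at rank 2 of 10190 genes, below *Rps2*, a ribosomal protein gene whose log2 ratios were 0.34 and 1.70. *Rps2* has many near-identical pseudogene copies, so its value is uncertain; it is named for its rank, after its values were seen.

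The AP-1 genes *Fos*, *Jun* and *Junb* encode proteins that pair with each other to bind DNA. *Junb* (chromosome 8, 84974484 to 84978718) was the most abundant of them, at 14.7 and 13.4 FPKM in si-ctrl and 23.6 and 17.1 FPKM in si-Atad2 libraries 1 and 2. Its groups did not overlap, and its mean log2 ratio was 0.49 ± 0.23 (SD, n = 2), from 0.65 in pair 1 and 0.33 in pair 2. Its locus overlaps the edge of *Prdx2*, so its reads could be split between them if strand was not used. *Jun* (chromosome 4, 95049034 to 95052222) was low, at 3.23 and 2.97 FPKM in si-ctrl and 4.19 and 4.06 FPKM in si-Atad2. In contrast to *Egr1*, its ratios were alike in the pairs, 0.29 and 0.35, for a mean of 0.32 ± 0.039 (SD, n = 2). *Fos* (chromosome 12, 85473890 to 85477273) had the lowest level, 2.39 and 2.53 FPKM in si-ctrl and 4.03 and 2.63 FPKM in si-Atad2 libraries 1 and 2. Only si-Atad2 1 was clearly above the controls, with log2 ratios of 0.57 and 0.04 in pairs 1 and 2 and a mean of 0.31 ± 0.37 (SD, n = 2).

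*Ier2*, whose product is a small nuclear protein of the immediate early response (chromosome 8, 84661331 to 84662852), was abundant before knockdown. It measured 48.3 and 47.3 FPKM in si-ctrl and 54.1 and 51.6 FPKM in si-Atad2. The groups did not overlap, but the ratios were small and alike, 0.16 and 0.12 on the log2 scale, with a mean of 0.14 ± 0.027 (SD, n = 2).

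Among the feedback genes, *Dusp6*, the phosphatase that dephosphorylates ERK in the cytoplasm (chromosome 10, 99263231 to 99267489), differed most. Its level was 13.9 and 14.2 FPKM in si-ctrl and 22.9 and 16.3 FPKM in si-Atad2 libraries 1 and 2. The groups did not overlap. Its log2 ratios of 0.68 for pair 1 and 0.19 for pair 2 averaged 0.44 ± 0.35 (SD, n = 2).

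The Sprouty proteins restrain receptor tyrosine kinase signalling upstream of ERK, and like *Dusp6* both genes had the larger ratio in pair 1. *Spry4* (chromosome 18, 38586247 to 38601415) stood at 34.0 and 36.6 FPKM in si-ctrl and at 49.1 and 40.6 FPKM in si-Atad2 libraries 1 and 2. Its log2 ratios were 0.52 and 0.15, with a mean of 0.33 ± 0.26 (SD, n = 2), and its groups did not overlap. *Spry2* (chromosome 14, 105891947 to 105896819) stood at 47.6 and 49.4 FPKM in si-ctrl and at 56.8 and 50.8 FPKM in si-Atad2 libraries 1 and 2. The groups were apart by little, since si-ctrl 2 and si-Atad2 2 differed by only 0.04 on the log2 scale, and the mean ratio was 0.14 ± 0.15 (SD, n = 2).

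*Etv4* and *Etv5*, ETS transcription factors that ERK signalling induces, were not higher after knockdown. *Etv4* (chromosome 11, 101769742 to 101785371) measured 42.2 and 41.2 FPKM in si-ctrl and 36.2 and 35.7 FPKM in si-Atad2. It was the sole member with both si-Atad2 libraries below both si-ctrl libraries, and its ratios were nearly equal, -0.22 and -0.20, with a mean of -0.21 ± 0.012 (SD, n = 2). *Etv5* (chromosome 16, 22381309 to 22439719), the most abundant of the 10, measured 109 and 108 FPKM in si-ctrl and 109 and 101 FPKM in si-Atad2. Its groups overlapped, and its log2 ratios were -0.0063 and -0.097.

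The lower level of *Etv4* was not shared by all of its 5 transcripts. The transcript of 2049 bases stood at 26.8 and 26.3 FPKM in si-ctrl and at 21.2 and 21.8 FPKM in si-Atad2, log2 ratios of -0.32 and -0.26. The transcript of 2321 bases was not lower, with 9.09 and 9.13 FPKM in si-ctrl and 10.1 and 9.21 FPKM in si-Atad2. The transcript of 1556 bases was at 4.72 and 4.61 FPKM in si-ctrl and 3.99 and 3.97 FPKM in si-Atad2. The remaining transcripts, of 1570 and 2336 bases, stayed under 1 FPKM in every library and were also lower in both pairs. How overlapping transcripts share reads is an estimate of the authors' software, so these values are less certain than their sum. Of the 10 genes, 7 had a single transcript in the tables, so the same could not be asked of them.

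**Figure D2:**
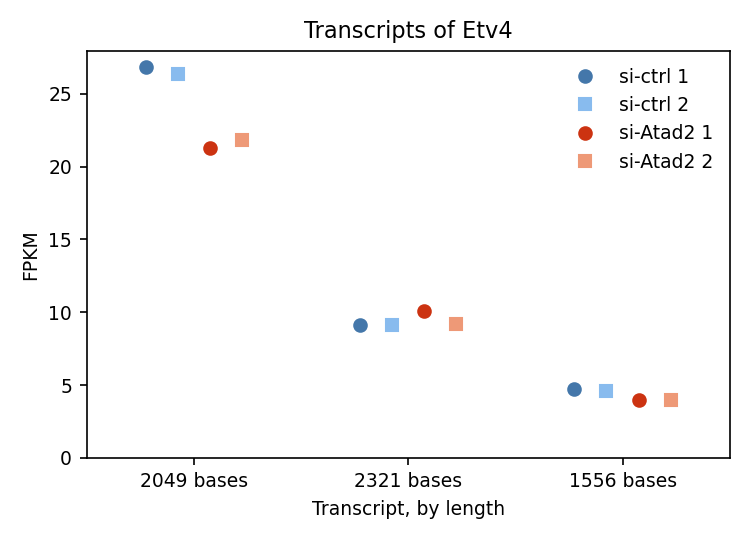
FPKM of the transcripts above 1 FPKM of *Etv4*, each transcript named by its length, with si-ctrl libraries in blue, si-Atad2 libraries in red, circles for pair 1 and squares for pair 2. The 2049-base transcript of *Etv4* is lower in si-Atad2 and the 2321-base transcript is not.

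Across the 10 genes, the log2 ratio was above 0 in both pairs for 8, against 28.7% of all genes tested, and below 0 in both pairs for 2, against 33.8%. Both si-Atad2 libraries lay above both si-ctrl libraries for 8 genes (22.5% of all genes) and below for 1 (26.6%). The authors' 95% intervals of the main transcript were apart with si-Atad2 higher in both pairs for 6 genes (4.68% of all genes), all but *Fos*, *Spry2*, *Etv4* and *Etv5*, and lower in both pairs for *Etv4* (5.74%). For completeness, in the limma fit over all genes 4 of the 10, *Egr1*, *Junb*, *Dusp6* and *Spry4*, passed an adjusted p of 0.05, all higher in si-Atad2, where 2.68% of all genes passed, 1.96% higher and 0.716% lower. Nothing is read from these counts, since the list was drawn up from this contrast. The count of 4, out of 273 genes called, became 1 of 152 without the replicate block. It became 0 of 74 after removal of a trend of the ratios with GC content. With that trend removed, the mean log2 ratios of *Egr1*, *Junb*, *Dusp6* and *Spry4* were 1.01, 0.50, 0.43 and 0.33.

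The members' median log2 ratio was 0.41 in pair 1, 0.14 in pair 2 and 0.31 for the means, where the medians over all genes were 0.0023, -0.016 and -0.0078. The ratio of pair 1 was above that of pair 2 for 8 members, all but *Jun* and *Etv4*, against 55% of all genes. Over all genes the log2 ratios were also spread more widely in pair 1 (interquartile range 0.21) than in pair 2 (0.15). All 10 were lower in si-Atad2 2 than in si-Atad2 1, as were 59.0% of all genes. The median absolute difference between the si-Atad2 libraries was 0.21 on the log2 scale for the members and 0.082 for all genes, and between the si-ctrl libraries it was 0.057 for the members and 0.058 for all genes. *Atad2* itself was lower in si-Atad2 1 than in si-Atad2 2, and its part in this difference was not tested.

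**Figure D3:**
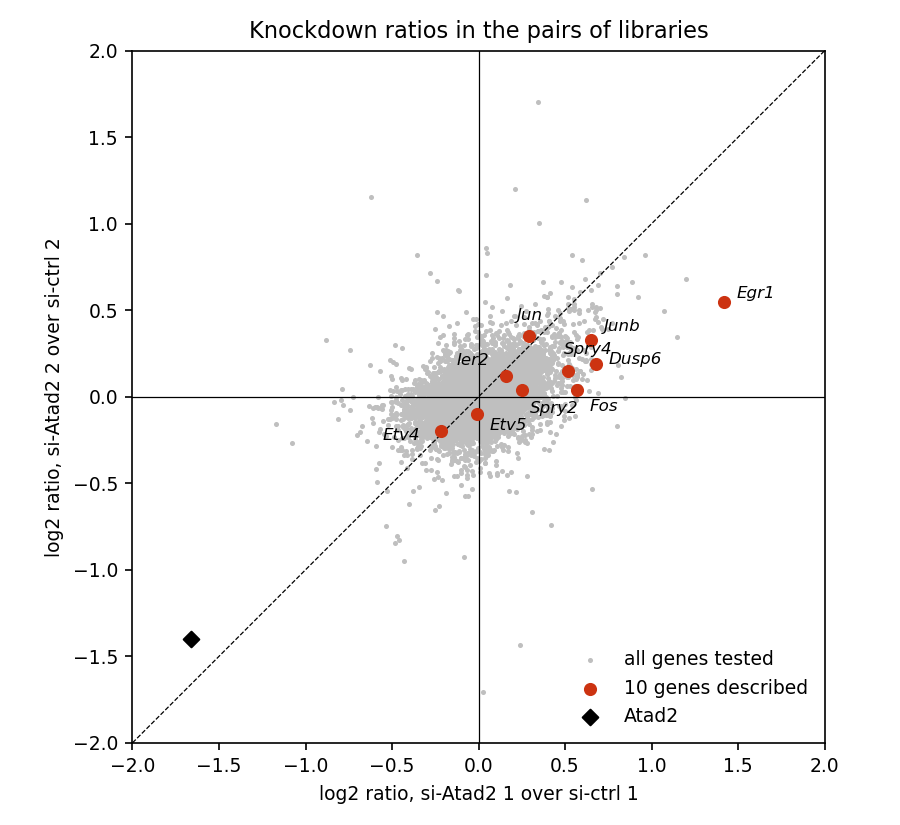
Log2 ratio of pair 2 against that of pair 1 for all 10190 genes tested (grey, 1 gene lies outside the axes), with the 10 genes in red and *Atad2* as a black diamond; the dashed line marks equal ratios. *Egr1*, *Fos*, *Dusp6* and *Spry4* lie to the right of the dashed line, *Jun* lies near it, and *Etv4* and *Etv5* lie below 0 in both pairs.

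The genes whose pair of log2 ratios lay nearest to that of *Egr1* among all tested genes outside the list were *Uhmk1*, *Dnajc14*, *Taf9b*, *Rhoc* and *Lrp11*, by distance over the 2 ratios. *Uhmk1*, a kinase gene, was nearest, with ratios of 1.20 and 0.68 at a distance of 0.256, and levels of 3.47 and 3.61 FPKM in si-ctrl and 9.29 and 6.40 FPKM in si-Atad2. *Rhoc*, a small GTPase gene, was the most abundant of these 5, with 14.4 and 13.9 FPKM in si-ctrl and 28.2 and 21.2 FPKM in si-Atad2. These genes were found by their ratios, so no test is given for them.

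Structural features that the list did not use were read from the GENCODE annotation. *Jun*, *Junb* and *Ier2* have 1 exon, as do 2.07% of the tested genes, while *Etv4* and *Etv5* have 13 exons. The 3′ untranslated regions of 8 of the 10 hold at least 1 ATTTA, the pentamer of AU-rich elements that mark short-lived mRNAs, against 69.8% of the 9989 tested genes with an annotated region. *Spry4* held 7, *Etv5* 5, and *Fos* and *Jun* 4 each, whereas *Ier2* and *Etv4* held none. The median count was 2 for the members and 2 for all genes, and 5 or more were held by 2 of the 10 and by 22.4% of all genes, while per kilobase the medians were 2.14 and 1.31. *Egr1* and *Junb* held 2 each and *Dusp6* 1. The part of this element in the ratios was not tested.

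Other immediate early genes were followed from a list of 31, of which 23 were tested. Like the pathway and stress lists below, it was drawn up with earlier results of these data known. In this list 3 rose and none fell, where 1.96% of all genes rose and 0.716% fell, and 20 did not pass. The log2 ratio was above 0 in both pairs for 12 (28.7% of all genes) and below 0 in both for 3 (33.8%), with a median of 0.10. *Klf2*, a Krüppel-like factor that supports naive pluripotency, was at 53.1 and 48.1 FPKM in si-ctrl and 77.7 and 85.7 FPKM in si-Atad2. It rose by 0.68 on the log2 scale (limma, SE 0.0722, adjusted p = 0.0003), with the larger ratio in pair 2. *Zfp36l1*, whose product binds AU-rich elements and promotes mRNA decay, rose from 26.0 and 26.1 FPKM to 37.5 and 33.4 FPKM, by 0.43 (limma, SE 0.0689, adjusted p = 0.0046). *Ccn1*, a matricellular protein gene, rose from 2.28 and 2.41 FPKM to 3.67 and 3.17 FPKM, by 0.40 (limma, SE 0.0894, adjusted p = 0.033). The *Egr1* paralogs *Egr2*, *Egr3* and *Egr4* and the *Fos* paralog *Fosb* were each under 1 FPKM in all 4 libraries and were not tested. *Fosl2*, another *Fos* paralog, was at 1.38 and 1.37 FPKM in si-ctrl and 1.58 and 1.25 FPKM in si-Atad2, and did not pass (limma, log2 ratio 0.021, adjusted p = 0.94; named after its values were seen). The call of *Ccn1* was lost without the replicate block (adjusted p = 0.057) and after removal of the GC trend (adjusted p = 0.11), and over all alternatives its adjusted p in limma ran from 0.014 to 0.55. That of *Zfp36l1* became 0.054 after removal of the GC trend, within a range of 0.0011 to 0.53 in limma.

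Of 14 other ERK feedback and target genes, 11 were tested and 0 passed the limma threshold in either direction, with a median log2 ratio of 0.057. The largest ratios of equal sign were those of *Spred3*, a Sprouty-related gene (0.27, adjusted p = 0.14), *Ets2*, an ETS factor (-0.22, adjusted p = 0.16), and *Dusp5*, the nuclear ERK phosphatase (0.14, adjusted p = 0.46). *Spry1*, the remaining Sprouty gene tested, was at 5.60 and 5.55 FPKM in si-ctrl and 5.36 and 4.94 FPKM in si-Atad2 (named after its values were seen).

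Upstream of the members, 9 of 12 FGF ligand and receptor genes were tested, and *Fgf15* alone passed. *Fgf15*, a ligand of the endocrine FGF subfamily, was at 32.4 and 31.5 FPKM in si-ctrl and 22.1 and 21.3 FPKM in si-Atad2, and it fell by 0.54 on the log2 scale (limma, SE 0.0657, adjusted p = 0.00079). The groups were well apart and its pairs gave nearly equal ratios. *Fgf4*, the main autocrine ligand of ES cells, measured 103 and 105 FPKM in si-ctrl and 92.4 and 89.5 FPKM in si-Atad2, and did not pass (log2 ratio -0.19, limma adjusted p = 0.11; named after its values were seen). The list's median log2 ratio was -0.14, and 6 of its 9 tested genes were below 0 in both pairs (33.8% of all genes).

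Of the 22 tested genes reported here that carry the signal from receptor to ERK and on to its kinases, 0 passed the limma threshold, and the median log2 ratio was -0.049. *Rps6ka3*, a kinase gene downstream of ERK, had the largest ratio of equal sign, with 7.51 and 8.56 FPKM in si-ctrl and 11.4 and 9.72 FPKM in si-Atad2 (0.35, limma adjusted p = 0.059). It was followed by *Hras*, a small GTPase gene (-0.25, limma adjusted p = 0.11), and *Rps6ka2* (-0.18, limma adjusted p = 0.25). The tables hold RNA levels and say nothing of ERK phosphorylation.

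Nuclear effectors did not pass either, with 0 of 7 tested genes past the limma threshold and a median log2 ratio of 0.017. *Erf*, an ETS repressor that ERK excludes from the nucleus, had the largest ratio of equal sign (0.17, adjusted p = 0.19), followed by *Creb1* (-0.075, adjusted p = 0.70) and *Srf*, the serum response factor (0.020, adjusted p = 0.93). Over all 10190 genes an unadjusted limma p under 0.05 was reached by 1675. Each call among the genes outside the 10, in these lists and among the stress genes, was lost when the filter on levels was dropped and when transcripts of all lengths were summed, apart from that of *Atad2*, which was lost only when the filter was dropped.

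**Figure D4:**
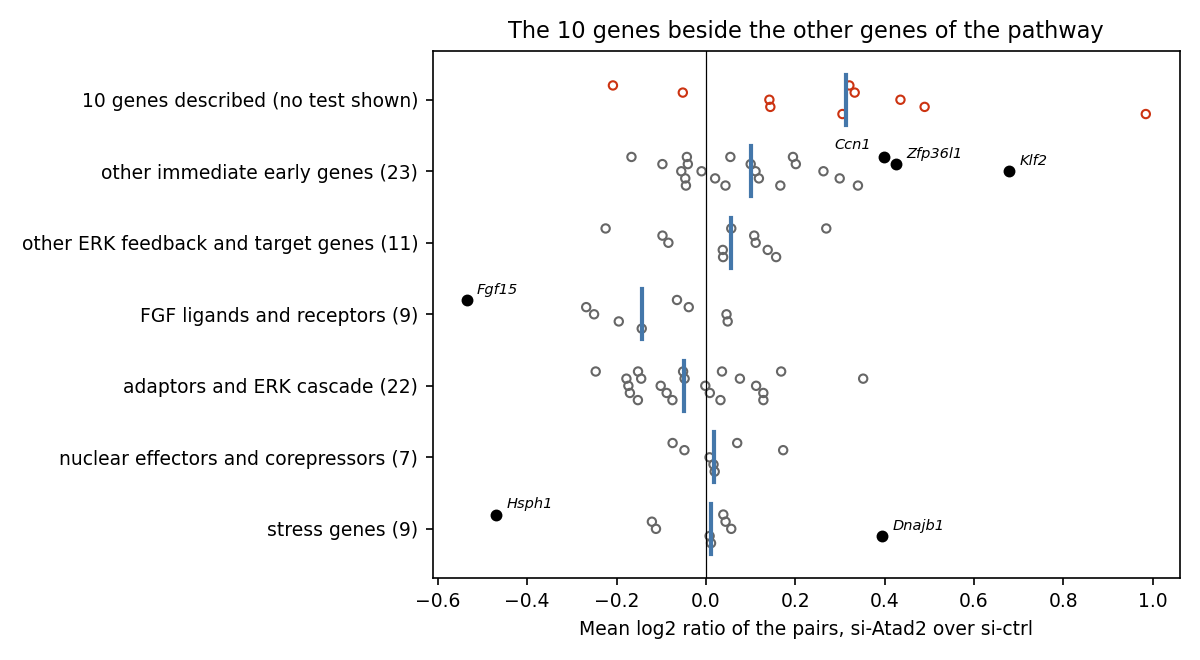
Mean log2 ratio of the pairs for each tested gene of each list (number tested in brackets), with a blue bar at the list's median; filled black points passed an adjusted p of 0.05 in the limma fit over all genes, and the 10 genes described (red) are shown without a test. The members' median is 0.31, for a list chosen through the ratio of *Egr1* in this same contrast. The other lists' medians range from -0.14 to 0.10, and those lists were also drawn up with earlier results of these data known.

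Stress also induces immediate early genes, so stress genes were measured beside them. Of 9 tested, *Dnajb1*, a co-chaperone gene, rose from 19.8 and 19.3 FPKM to 27.3 and 24.9 FPKM, by 0.39 on the log2 scale (limma, SE 0.0679, adjusted p = 0.0068). *Hsph1*, a chaperone gene, fell from 48.9 and 51.2 FPKM to 27.5 and 46.8 FPKM (limma, log2 ratio -0.47, SE 0.114, adjusted p = 0.049), mostly in pair 1. Its call did not hold in TPM (limma, adjusted p = 0.071) or without the replicate block (limma, adjusted p = 0.27), and its adjusted p in limma ran from 0.013 to 0.70 over the alternatives. The other 7 did not pass, and the list's median log2 ratio was 0.011. The part of stress in the members' values was not tested.

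Markers of the labelled cell type were present. The 8 ES cell markers summed to 3232 and 3282 FPKM in si-ctrl and 3055 and 3077 FPKM in si-Atad2, and 0 of 8 passed the limma threshold. *Nanog* had the lowest ratio of the 8 and measured 338 and 332 FPKM in si-ctrl and 253 and 313 FPKM in si-Atad2 libraries 1 and 2 (limma, log2 ratio -0.25, adjusted p = 0.085; named after its values were seen). The median log2 ratio of the 8 was -0.069, and the highest was 0.088. Most markers of fibroblasts, primitive endoderm, trophoblast, mesoderm and neural cells were low, with 12 of 18 under a mean of 1 FPKM. *Lum* was listed at 0 in every library. Highest of the other 6 was *Thy1*, at 6.70 and 6.23 FPKM in si-ctrl and 5.56 and 6.75 FPKM in si-Atad2. *Pax6* followed, at 2.15 and 2.53 FPKM in si-ctrl and 1.99 and 1.79 FPKM in si-Atad2. The 18 markers summed to 17.7 and 16.9 FPKM in si-ctrl and 15.8 and 17.6 FPKM in si-Atad2. Their part in the members' values was not tested.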

How the data were processed

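RNA-seq of 46C ES cells with TAP-tagged *Atad2* was analysed in 4 libraries, 2 si-ctrl and 2 si-Atad2, grouped and numbered by the sample labels. The authors made TruSeq paired-end libraries and ran Cuffdiff on each pair of libraries, and the submitters' processing notes name TopHat, Cuffdiff and mm9 without versions. The loci in the tables, however, match GRCm38. The deposited FPKM values were scaled to library size within each run by the authors and carry 95% intervals, and no counts are given, so the depth was not read directly. If the intervals hold counting error alone, they correspond to between 232 and 20020 fragments for the main transcript of a member in a library. The authors' differential testing tables hold fold changes, p-values and q-values and were not used, and the transcript tables repeat the gene tables.

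Of 59120 transcripts, 14840 were named by length within 3 bases of a GENCODE M21 transcript in the locus. Another 30621 were named by the only coding gene of the locus, or by the one inside it where any other covered only a small part. The remaining 13659 stayed unnamed. Transcripts under 200 bases were dropped, as were transcripts whose status in the authors' tables was not OK in every library. A gene with a failed estimate for any transcript of at least 200 bases was left out. FPKM of the remaining transcripts were summed per gene, and a gene was tested if its mean reached 1 FPKM. Use of strand is not stated, so values of overlapping genes are uncertain. Log2 ratios with a pseudocount of 1 FPKM were taken within pairs and tested, two-sided, with limma 3.58.1 (lmFit, eBayes with an intensity trend) and Benjamini-Hochberg adjustment over 10190 genes at 0.05. An exact permutation test over 2 against 2 libraries cannot go below p = 0.333 and was not used. A listed gene of the ERK cascade is not reported here. The members and lists were chosen with earlier results of these data known. Named genes are the members, *Atad2*, the genes of each list past the threshold or else the 3 of largest ratio with equal sign in both pairs, and the 5 nearest to *Egr1*. Further genes (*Rps2*, *Fosl2*, *Spry1*, *Fgf4*, *Nanog*, *Lum*, *Thy1* and *Pax6*) lie outside this rule and were picked with their values in view. The untested *Egr2*, *Egr3*, *Egr4* and *Fosb*, and *Prdx2* as a neighbour of *Junb*, also lie outside the rule. Pseudocounts of 0.1 and 5 FPKM, TPM, median of ratios, other filters, other row choices, a GC correction, no block, eBayes without a trend, a threshold of 0.1 and leaving out a replicate were tried.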

Additional observations from a re-analysis of the deposited data

How the results depend on the processing

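The mean log2 ratio of every member kept its sign in the alternatives run, and that of *Egr1* ranged from 0.55 to 1.42. Within pair 1, the ratio of *Etv5* went from -0.0063 to 0.020 with the GC trend removed. The *Jun* ratio was 0.40 with a pseudocount of 0.1 FPKM, 0.17 with 5 FPKM and 0.41 in TPM, and that of *Ier2* 0.18 in TPM. That of *Etv4* was -0.19 with 5 FPKM, -0.18 in TPM, -0.29 for its top transcript and -0.19 with the GC trend removed. The members' median lay between 0.14 and 0.41 when either replicate was left out. The number of genes called (273, 200 higher and 73 lower) became 411 with 5 FPKM, 14 with transcripts of all lengths, 89 with the top transcript, 74 with the GC trend removed, 506 at an adjusted p of 0.1 and 0 of 20780 genes without a filter (limma, 1912 at an unadjusted p under 0.05), where *Atad2* at -1.53 was not called either (adjusted p = 0.51). In TPM 281 were higher and 46 lower. The members called (4, from which nothing is read) became 2 with median of ratios or eBayes without a trend, 1 with the top transcript and 0 with the GC trend removed, no filter or all lengths.

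Median ratios of lists also moved. Other immediate early genes had 0.051 with 5 FPKM, 0.15 in TPM and 0.045 to 0.080 when a replicate was left out, and other ERK feedback genes 0.10 in TPM and 0.053 to 0.10 when a replicate was left out. FGF ligands and receptors had -0.097 with 5 FPKM, -0.079 without a filter, -0.11 for top transcripts and -0.14 to -0.098 with a replicate left out. The cascade had -0.040 with 5 FPKM, -0.017 in TPM, -0.029 for top transcripts, -0.037 with the GC trend removed and -0.033 to -0.021 with a replicate left out. Nuclear effectors had 0.052 in TPM and -0.0050 to 0.033 with a replicate left out, and stress genes -0.047 to 0.079, so that these last medians changed sign. List calls fell to 0 in every list without a filter or with all lengths. With the GC trend removed 1 other immediate early gene was called. The cascade had 1 call with either other pseudocount, in TPM and at 0.1, and the stress genes 1 in TPM, with median of ratios, top transcripts, the GC trend removed, no replicate block or eBayes without a trend. The causes were not tested.

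The replicate block comes from the authors' runs on each pair. Deviations of same-numbered libraries correlated at -0.038, so the values show no shared deviation. With no replicate block, 152 genes and 1 member were called, the ratio of *Egr1* stayed at 0.98 and that of *Atad2* at -1.53, and *Ccn1* and *Hsph1* lost their calls. Ratios correlated with GC content at a Spearman rho of -0.28 in pair 1 and 0.084 in pair 2. Counts of calls were not run with a replicate left out, since 1 ratio has no residual spread. The tables hold no counts, and *Fos*, with the fewest fragments implied by the authors' intervals (232), is the member whose precision depth limits most.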
